A study of Homo sapiens with 12 samples.

Results

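PTPRC, the gene of the leukocyte phosphatase CD45, was examined with every one of its transcripts, together with HNRNPLL and PTBP1, RNA-binding proteins known to act on its alternative exons. The members were chosen by gene symbol and were 3 of 17589 genes and 17 of 90572 transcripts in the tables, of which PTPRC had 6, HNRNPLL 6 and PTBP1 5. All 3 genes passed the filter on low counts. CD45 is a receptor-type tyrosine phosphatase on the surface of nearly all nucleated blood cells, where it removes an inhibitory phosphate from kinases of the SRC family. Its extracellular domain is varied by alternative exons, whose inclusion gives the CD45RA, CD45RB and CD45RC epitopes and whose joint skipping gives CD45RO. HNRNPLL and its relative HNRNPL are known to repress these exons, and PTBP1 is a repressor of alternative exons in many genes.

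RNA was sequenced from YT, an NK-like human lymphoid cell line, in 4 groups of 3 libraries, 12 in all. Each group had been transduced with a lentiviral vector and sorted for eGFP, and in the receptor vectors the constitutive hEF1A promoter drove the receptor. CTRL cells carried eGFP alone. The hnCD16 cells carried a CD16a receptor changed by point substitutions in its ectodomain and with its natural cytoplasmic tail. In FR1 the tail was replaced by the signalling parts of 2B4, DAP10 and CD3ζ, and in FR2 by those of DAP10 and CD3ζ. The study's methods speak of independent experiments for its in vitro data in general, but neither they nor the labels say for these libraries that those of a group came from separate cultures. The p-values therefore measure the spread between libraries, which may be technical.

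Total counts per library ran from 17714550 to 18729013. The FR1 and FR2 libraries stood apart from the CTRL and hnCD16 libraries in the genes that define the labelled cell type. CD3D, a T cell receptor chain partner, had 1173 to 1444 TPM, an abundance scaled for transcript length and library total, where the label was CTRL or hnCD16, and at most 0.45 where it was FR1 or FR2. GZMB, the cytotoxic granule protease granzyme B, did not exceed 1.93 TPM in CTRL or hnCD16 and had 5078 to 5656 TPM in FR1 or FR2. Of 12 NK cell markers tested, 9 were higher and 2 lower in FR1 than in hnCD16, and of 8 T cell markers 1 was higher and 7 were lower, beside 18.7% of all genes tested higher and 19.6% lower. The CTRL and hnCD16 libraries thus went against the label of an NK-like line. When either FR group is set against CTRL or hnCD16, the construct and the cells that received it cannot be told apart. The contrasts hnCD16 minus CTRL and FR1 minus FR2 each stay within 1 kind of library. In bulk RNA, fewer cells of a type and less RNA per cell cannot be told apart either.

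The stretch of PTPRC that gives CD45 its isoforms holds 3 consecutive coding exons, numbered 4, 5 and 6 of the 33 exons of the reference transcript PTPRC-209. PTPRC (NCBI Gene 5788) lies on the plus strand of chromosome 1 in GRCh38, at chr1:198638457-198757476 in GENCODE 44. Exons 4 and 6 are shown as examples of the alternative exons, against whose lengths the transcripts are compared. Capitals mark CACA on the sense strand, a CA-rich string of the kind that proteins of the HNRNPL family are known to bind.
PTPRC exon 4, chr1:198696712-198696909: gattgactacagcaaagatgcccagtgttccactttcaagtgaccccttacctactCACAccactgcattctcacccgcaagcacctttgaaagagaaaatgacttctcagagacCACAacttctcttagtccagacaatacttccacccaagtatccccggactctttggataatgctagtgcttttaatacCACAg
PTPRC exon 6, chr1:198702387-198702530: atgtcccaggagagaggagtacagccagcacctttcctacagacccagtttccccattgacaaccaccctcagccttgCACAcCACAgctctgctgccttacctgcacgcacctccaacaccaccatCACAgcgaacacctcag

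Exons 4, 5 and 6 were 198, 141 and 144 bases long. CACA stood 3 times in exon 4 and 3 times in exon 6. Of internal coding exons of the same length in reference transcripts, 52.1% and 46.1% held CACA, searched on the sense strand only. The longer ACACA was in neither exon, and TCTT, a pyrimidine string of the kind PTBP1 binds, stood 2 times in exon 4 and was not among the letters of exon 6. A match is a description of the letters and not a binding site, and these counts cover exons 4 and 6 only, so they do not describe the alternative exons as a group.

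PTPRC rose in both FR1 and FR2 against both other groups. It had 48.8, 72.9 and 80.9 TPM in the CTRL libraries and 63.2, 70.8 and 90.02 TPM in the hnCD16 libraries. It had 462, 477 and 473 TPM in FR1, and 382, 371 and 405 TPM in FR2. Every FR1 and FR2 library was above every CTRL and hnCD16 library, the FR1 libraries were all above the FR2 libraries, and the CTRL and hnCD16 libraries overlapped. Differential expression was tested with edgeR's quasi-likelihood test on counts, and DEGs were genes whose log2 fold change was 1 or more in size with adjusted p no higher than 0.05. PTPRC was higher in FR1 than in hnCD16 by a log2 fold change of 2.75 ± 0.12 (SE, edgeR adjusted p = 3.80e-13), and in FR2 than in hnCD16 by 2.46 ± 0.118 (edgeR adjusted p = 1.57e-12). Against CTRL, which is shared by the next 2 comparisons, the log2 fold change was 3.07 in FR1 and 2.77 in FR2. In these comparisons a large part of all genes were DEGs, with 38.3% of genes in FR1 against hnCD16 (18.7% higher, 19.6% lower), 39.5% in FR2 against hnCD16 (19.6% higher, 19.8% lower), 38.0% in FR1 against CTRL and 38.2% in FR2 against CTRL.

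**Figure D1:**
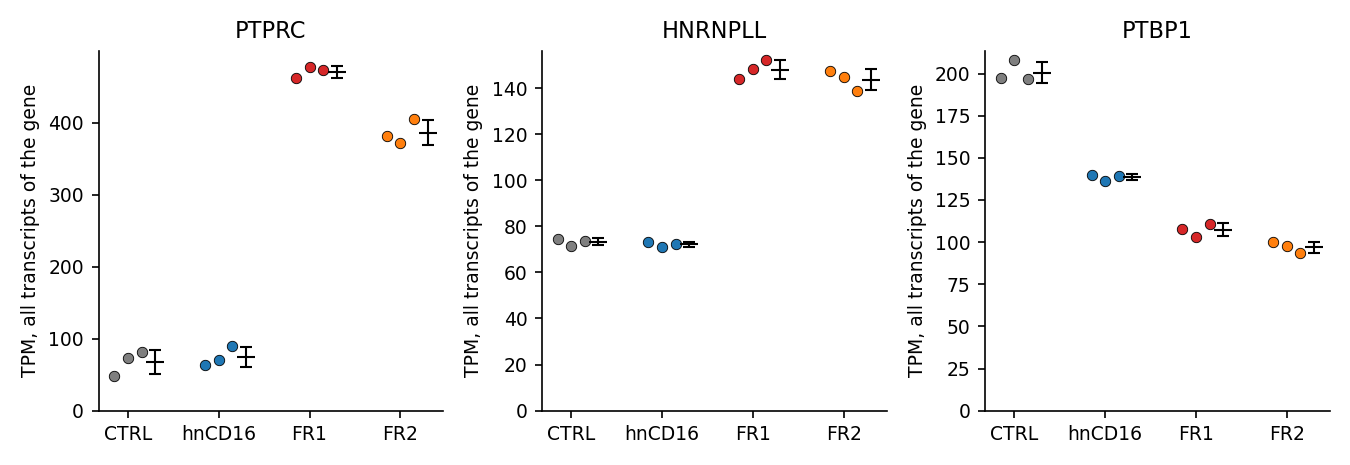
TPM of PTPRC, HNRNPLL and PTBP1 in the 12 libraries, by group. Points are libraries and the bar beside them is the mean ± SD (n = 3). The FR1 and FR2 points of PTPRC and HNRNPLL all lie above the CTRL and hnCD16 points, and those of PTBP1 all lie below.

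Within the pairs of like libraries PTPRC did not reach the threshold. The log2 fold change was 0.31 ± 0.115 for hnCD16 minus CTRL (edgeR adjusted p = 0.0375) and 0.29 ± 0.111 between FR1 and FR2 (edgeR adjusted p = 0.0474). Both are under the fold threshold. In the hnCD16 comparison 0.527% of genes were DEGs and 43.0% passed on adjusted p alone, and in the FR1 comparison with FR2 these shares were 1.93% and 36.2%.

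HNRNPLL, at chr2:38561969-38603586 on the minus strand (NCBI Gene 92906), was higher in FR1 and FR2 than in CTRL and hnCD16. Its TPM was 74.6, 71.6 and 73.6 in CTRL and 73.3, 71.0 and 72.3 in hnCD16. It was 144, 148 and 152 in FR1 and 148, 145 and 139 in FR2. The 6 FR1 and FR2 libraries did not overlap with the other 6, while groups within a pair overlapped. The share of all genes whose levels part the libraries in this way was not counted, here or for the other members. Over the libraries, 2166 of 12339 genes had a Pearson r over 0.95 with HNRNPLL. Relative to hnCD16 the log2 fold change of HNRNPLL came to 1.12 ± 0.0512 for FR1 (edgeR adjusted p = 7.87e-13) and 1.07 ± 0.0512 for FR2 (edgeR adjusted p = 1.46e-12). Against CTRL it was 1.27 and 1.22. These values lie close to the fold threshold, and with limma on log2(TPM + 1) HNRNPLL in FR2 came to 0.98 against hnCD16 and 0.96 against CTRL, under it.

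PTBP1, at chr19:797075-812327 on the plus strand (NCBI Gene 5725), had its highest level in CTRL. Its TPM was 197, 208 and 197 in CTRL and 139.7, 137 and 139 in hnCD16. It was 108, 103 and 111 in FR1 and 99.8, 97.9 and 93.4 in FR2. The 4 groups did not overlap with each other on this scale. On counts the log2 fold change against CTRL was -0.38 ± 0.0517 in hnCD16 (edgeR adjusted p = 4.93e-05), -0.68 ± 0.0521 for FR1 (edgeR adjusted p = 1.35e-09), and -0.82 ± 0.0523 for FR2 (edgeR adjusted p = 9.60e-11), so that PTBP1 was a DEG in none of the comparisons by this test. On adjusted p alone 79.9% of genes passed in FR1 and 80.2% in FR2 against CTRL, and 79.1% and 80.1% against hnCD16. With limma on log2(TPM + 1) the PTBP1 difference between FR2 and CTRL was -1.04 and passed the threshold.

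The PTPRC reads were divided mainly between the transcripts NM_080921 and XM_006711474. NM_080921 had an implied length of 4874.0 bases, computed from its expected count and its TPM, and PTPRC-209, which is 5357 bases long and holds all 3 alternative exons, is 4874 bases long without exons 4, 5 and 6. NM_080921 therefore has the length of the CD45RO transcript. The count of the gene is by construction the sum of the counts of its listed transcripts. A PTPRC transcript that is not listed could not be given reads, so whether any was present was not tested. The longest listed transcript, XM_006711472, had an implied length of 5018 bases, under the 5357 bases of PTPRC-209.

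NM_080921 rose far more than the gene as a whole. It had 4.62, 16.5 and 17.96 TPM in CTRL and 11.4, 12.2 and 11.4 TPM in hnCD16. It had 251, 261 and 232 TPM in FR1 and 242, 246 and 256 TPM in FR2. FR1 and FR2 overlapped, CTRL and hnCD16 overlapped, and the lowest library was replicate 1 of CTRL, in which PTPRC as a whole was also lowest. The log2 change of NM_080921 was 4.47 ± 0.4 in FR1 against hnCD16 (edgeR adjusted p = 2.03e-05) and 4.48 ± 0.4 in FR2 against hnCD16 (edgeR adjusted p = 1.89e-05), and was 4.47 and 4.48 against CTRL. At transcript level 14.8% of transcripts were called in FR1 against hnCD16 and 15.3% in FR2 against hnCD16, 14.7% and 14.8% in FR1 and FR2 against CTRL, 0.162% in hnCD16 against CTRL and 0.254% in FR1 against FR2.

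XM_006711474, the other main transcript, rose less. Its TPM was 39.7, 49.4 and 53.2 in CTRL, and 43.8, 53.6 and 73.35 in hnCD16. It was 189, 194 and 224 in FR1, and 126, 115 and 137 in FR2. The FR1 libraries were all above the FR2 libraries, and both were above all others. Relative to hnCD16 its log2 change was 1.90 ± 0.149 for FR1 (edgeR adjusted p = 7.71e-06), while FR2 had 1.22 ± 0.146 (edgeR adjusted p = 0.000152). Between FR1 and FR2 it was 0.68 ± 0.144 (edgeR adjusted p = 0.0594), while NM_080921 differed by -0.01 ± 0.346.

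**Figure D2:**
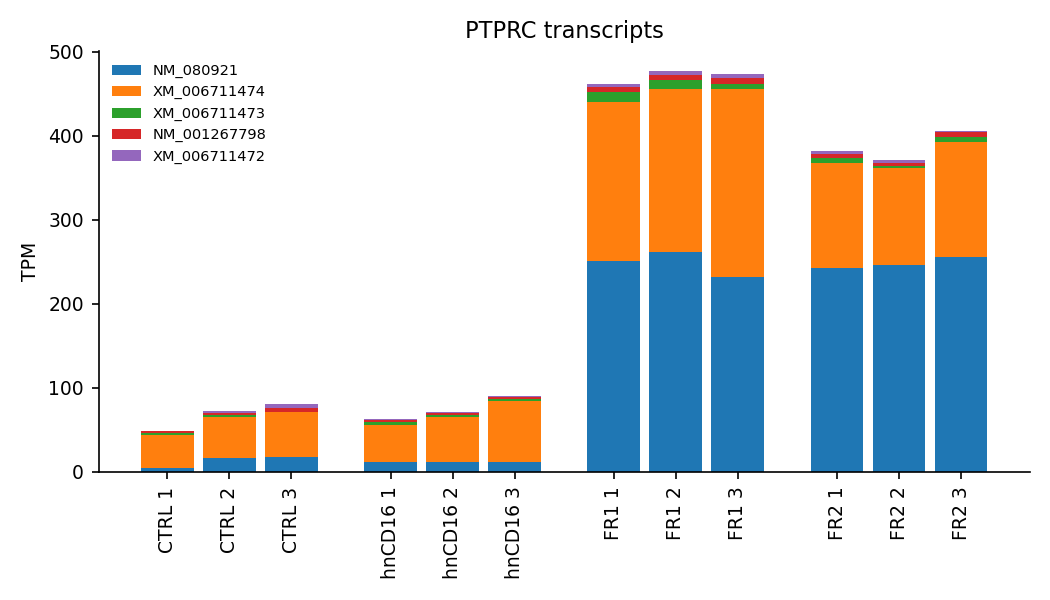
TPM of the PTPRC transcripts in each of the 12 libraries, stacked so that a bar is the level of the gene. The number after the group is the replicate. NM_080921 is the smaller of the main parts in CTRL and hnCD16 and the larger in FR1 and FR2.

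As a share of the gene's TPM, NM_080921 took 9.46%, 22.7% and 22.2% in the CTRL libraries and 18.1%, 17.2% and 12.7% in the hnCD16 libraries. It took 54.4%, 54.8% and 49.0% in FR1 and 63.5%, 66.2% and 63.1% in FR2. The FR1 and FR2 libraries had a mean share of 58.5% and the CTRL and hnCD16 libraries one of 17.0%, with no overlap. The difference of 41.5 percentage points had p = 0.00216 in an exact two-sided permutation test of 6 against 6 libraries. This is the smallest p that the 924 arrangements allow. Like the other exact tests here, it shuffled libraries as independent, although those of a group may be technical repeats. It therefore cannot show that the difference would recur in separately transduced cells. The division of libraries it tested was also the one already seen in the cell type genes. Of 28573 transcripts with a mean of at least 1 TPM in genes with other transcripts, 12.9% did not overlap between these libraries, and 2.62% did not overlap and differed by at least 30 percentage points. Shares were compared for 16 transcripts of the 3 genes in 112 comparisons, and p-values of the exact tests are unadjusted.

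FR2 lay above FR1, at 64.2% ± 1.69 (SD, n = 3) against 52.8% ± 3.22, without overlap. The exact permutation test of 3 against 3 libraries gave p = 0.1, the smallest it allows. The hnCD16 mean of 16.0% ± 2.90 and the CTRL mean of 18.1% ± 7.50 overlapped, with p = 0.6 in the exact permutation test.

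**Figure D3:**
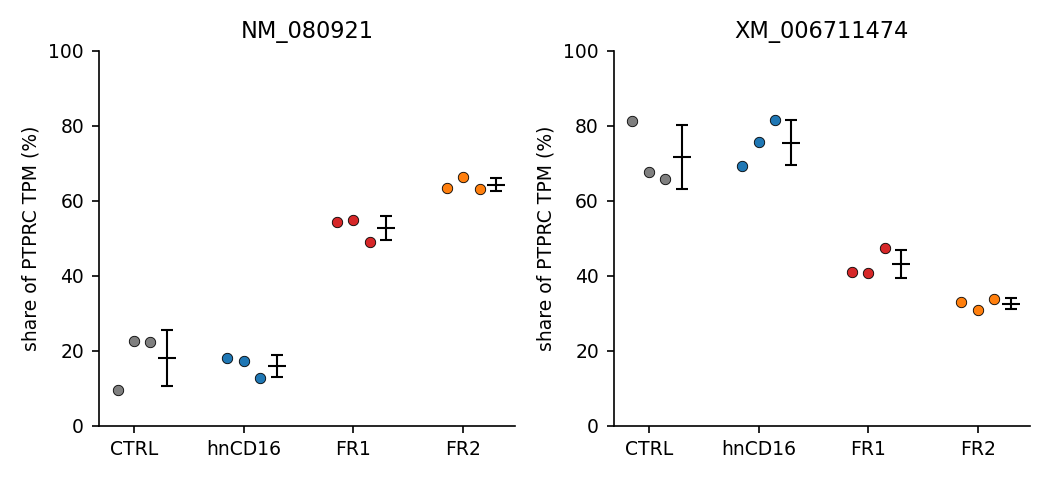
Share of NM_080921 and of XM_006711474 in the PTPRC TPM, in percent, by group. Points are libraries and the bar beside them is the mean ± SD (n = 3). NM_080921 lies at or below 22.7% in CTRL and hnCD16 and at or above 49.0% in FR1 and FR2, and XM_006711474 runs the other way.

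The test of transcript usage asks whether a transcript changes relative to its gene. NM_080921 usage was higher in FR1 than in hnCD16 by 1.72 on the log2 scale (edgeR adjusted p = 3.26e-06) and in FR2 than in hnCD16 by 2.01 (edgeR adjusted p = 1.05e-07). Against CTRL it was higher by 1.43 (edgeR adjusted p = 0.000121) in FR1, while FR2 was higher by 1.71 (edgeR adjusted p = 3.80e-06). XM_006711474 usage fell in FR2, by 1.25 on the log2 scale against hnCD16 (edgeR adjusted p = 0.00140) and by 1.15 against CTRL (edgeR adjusted p = 0.00385), and in FR1 it came to -0.85 and -0.75 without passing the test. The call against CTRL was lost without replicate 1 of CTRL (edgeR adjusted p = 0.0560) or without any 1 FR2 library (edgeR adjusted p = 0.0528 to 0.0769). Few transcripts passed it, with 1.1% in FR1 against hnCD16, 1.21% in FR2 against hnCD16, 1.21% in FR1 against CTRL and 1.24% in FR2 against CTRL. Within the pairs NM_080921 usage was not called, at -0.30 for hnCD16 minus CTRL and -0.28 for FR1 minus FR2, where 0.0528% and 0.0453% of transcripts were called.

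The change in share cannot be read as a change in the inclusion of exons 4 to 6, and whether the share of NM_080921 is that of all CD45RO is not known from these files. NM_080921 was 37.0 bases longer than XM_006711474, and no sum or difference of the lengths of exons 4, 5 and 6 gives that number, the nearest being 54. The transcripts therefore differ elsewhere, whether or not they also differ in these exons, and the exon content of the XM models is not given in the sources used here. XM_006711473 was 143 bases longer than XM_006711474, and XM_006711472 was 144 bases longer than NM_080921. Both differences lie near the lengths of exon 6 and exon 5, at 144 and 141 bases, which the lengths of these low transcripts do not separate.

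The remaining PTPRC transcripts were low. XM_006711473 had 0.62 to 4.44 TPM in CTRL and hnCD16 and 3.23 to 11.6 TPM in FR1 and FR2, and was called higher in FR1 at transcript level. Against hnCD16 that call (edgeR adjusted p = 0.0488) was lost without replicate 2 or 3 of hnCD16 or replicate 1 or 2 of FR1, and with RLE normalization. XM_006711472 had at most 4.67 TPM in CTRL and hnCD16 and 1.52 to 5.03 TPM in FR1 and FR2. NM_001267798, a short transcript listed at 2 places whose counts were added, fell from a mean share of 3.91% in CTRL and hnCD16 to 1.18% in FR1 and FR2 (p = 0.00216, exact permutation test). The share of XM_006711474 fell from 73.6% to 37.8% between the same libraries (p = 0.00216, exact permutation test). These exact tests also shuffled libraries as independent, with the same limit as for NM_080921. The shares of a gene have a fixed sum, so these falls are not results separate from the rise of NM_080921.

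The main HNRNPLL transcript, XM_005264640, had 24.5 to 34.5 TPM in CTRL and hnCD16 and 73.7 to 91.4 TPM in FR1 and FR2. It rose at transcript level in all 4 comparisons, by 1.63 ± 0.133 in FR1 against hnCD16 with edgeR adjusted p = 1.05e-05, while FR2 had 1.52 ± 0.132 with edgeR adjusted p = 1.56e-05. Its share was 40.4% in CTRL and hnCD16 and 56.7% in FR1 and FR2, and its usage was not called in any of these comparisons. NM_001142650 was at 0 counts in all CTRL and hnCD16 libraries. It had 1.37, 381 and 104 counts in FR1 and 921, 644 and 277 in FR2, a wide spread within each group. Its usage was called in all 4 comparisons, and its level was too, at edgeR adjusted p = 0.0238 to 0.0412. It passed the filter on low counts only through the FR1 and FR2 libraries. The direction of a difference was therefore set by the filter, and these calls are no independent test of it. The level lost its call with the replicate block (adjusted p = 0.0836 to 0.137), without any 1 library of CTRL or hnCD16, without replicate 2 or 3 of FR1, and without replicate 1 or 2 of FR2. NM_138394 also varied within FR2, at 2.68, 8.49 and 19.7 TPM. In counts it had 114, 368 and 831 in FR2 and 1039, 788 and 822 in FR1. Within each of these groups NM_138394 was thus lowest where NM_001142650 was highest and highest where it was lowest. How RSEM divided reads that these transcripts share was not tested, so their changes cannot be read as separate.

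PTBP1 was divided between NM_002819 and NM_031991, which was 77.8 bases shorter. Exon 9 of PTBP1 has 78 bases, is known to be alternative and is shown because its length matches that difference. Its skipping is known to weaken the protein's activity as a repressor.
PTBP1 exon 9, chr19:805492-805569: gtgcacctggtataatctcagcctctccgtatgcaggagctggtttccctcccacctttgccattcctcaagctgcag

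NM_031991, the transcript with the length that skipping of exon 9 gives, had a share of 50.5% ± 3.47 in CTRL, 49.6% ± 5.13 in hnCD16 and 49.5% ± 6.44 in FR1 (SD, n = 3). In FR2 it had 31.1% ± 3.12, with 27.6%, 32.3% and 33.5% in its libraries, below all other libraries. The exact permutation test of FR2 against FR1 gave p = 0.1, the smallest it allows. Its level was lower in FR2 than in hnCD16 by a log2 change of -1.11 ± 0.0977 (edgeR adjusted p = 1.64e-05), and higher in FR1 than in FR2 by 0.81 ± 0.0972 (edgeR adjusted p = 0.00370), which is under the fold threshold. Its usage was not called, at -0.69 in FR2 against hnCD16 (edgeR adjusted p = 0.391) and 0.69 in FR1 against FR2 (edgeR adjusted p = 0.690). The minor transcript XM_005259597 rose at transcript level in FR2, where it had 4.22 to 6.24 TPM against 1.47 to 2.62 TPM in hnCD16. That call was lost without replicate 2 of FR2, and the call against CTRL without any 1 CTRL library or without replicate 1 or 2 of FR2.

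**Figure D4:**
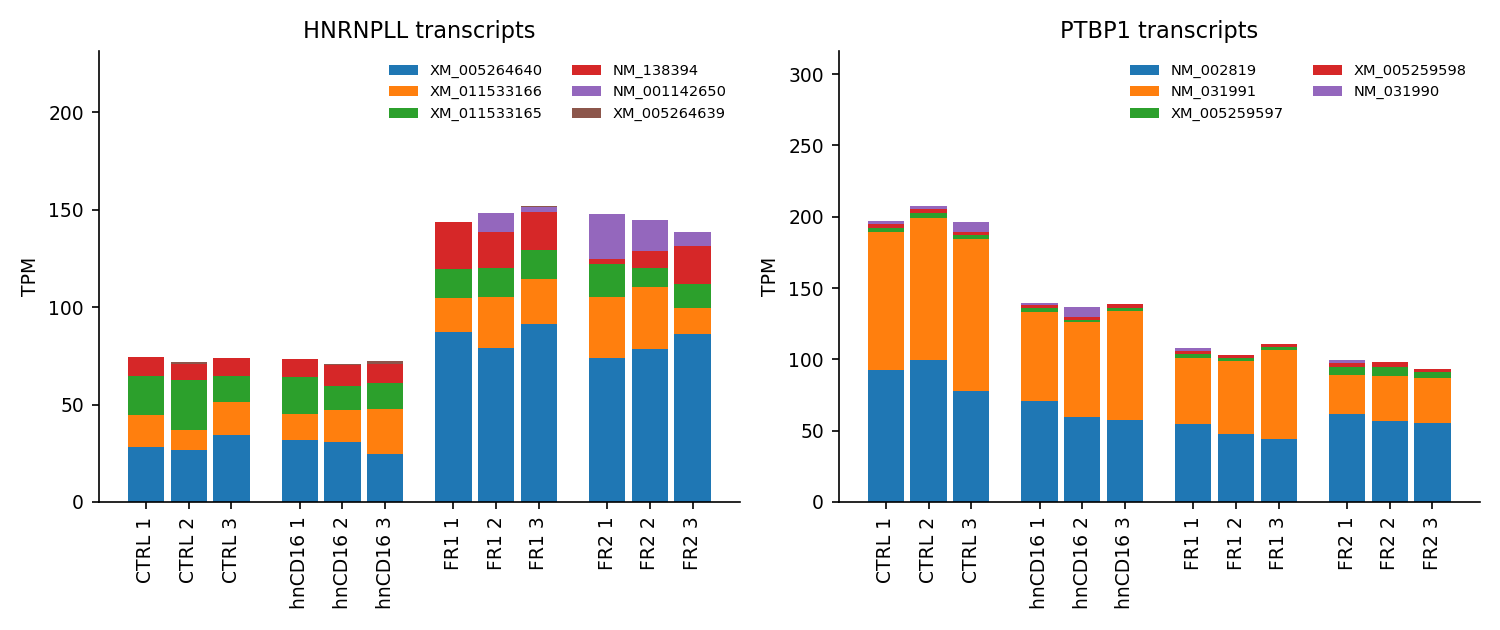
TPM of the HNRNPLL and PTBP1 transcripts in each of the 12 libraries, stacked so that a bar is the level of the gene. The number after the group is the replicate. HNRNPLL bars are taller in FR1 and FR2, and the NM_031991 part of PTBP1 is smallest in FR2.

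Of 20 other regulators of alternative splicing, all tested, only MBNL1, a muscleblind family protein, was a DEG, and only in FR1 against CTRL (log2 fold change 1.13 ± 0.0715, edgeR adjusted p = 8.87e-11). MBNL1 lost that call by library size only and with limma on TPM. Of all genes tested, 38.0% and 38.2% were DEGs in FR1 and FR2 against CTRL, and 38.3% and 39.5% against hnCD16. In FR2 against CTRL 1 of the 20 genes was called by library size only, without the filter on low counts, with at least 10 counts in every library, without replicate 1 of CTRL or without replicate 3 of FR2, and 2 were called with limma on TPM. Their median log2 fold change was -0.38 in FR1 and -0.50 in FR2 against hnCD16, beside -0.01 and -0.03 over all genes tested. HNRNPL, the closest relative of HNRNPLL, stood at 0.04 ± 0.0488 in FR1 and -0.02 ± 0.0488 in FR2. TRA2B, which favours inclusion of alternative exons, stood at -0.79 and -0.99, and HNRNPK, a poly(C)-binding hnRNP protein, at -0.61 and -0.95, both under the threshold. In FR2 both passed it with limma on log2(TPM + 1), at -1.04 for TRA2B and -1.01 for HNRNPK. TRA2B in FR2 also passed by library size only (-1.003), without replicate 3 of hnCD16 (-1.004) and without replicate 2 of FR2 (-1.015). SFPQ, a partner of PTBP1 in splicing, stood at -0.25 and -0.41.

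Among 16 further hnRNP genes 1 was lower in FR1 and 2 in FR2 against hnCD16, and among 7 further SR protein genes 1 was lower in each. Of all genes tested, 19.6% were lower in FR1 and 19.8% in FR2. HNRNPH3 fell by 1.12 in FR1 and 1.44 in FR2 on the log2 scale, HNRNPR had a log2 fold change of -1.20 in FR2, and SRSF9 fell by 1.02 in FR1 and 1.14 in FR2. SRSF9 in FR1 came to -0.98 without replicate 1 of hnCD16. The median was -0.20 and -0.48 for the hnRNP genes and -0.54 and -0.39 for the SR protein genes.

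**Figure D5:**
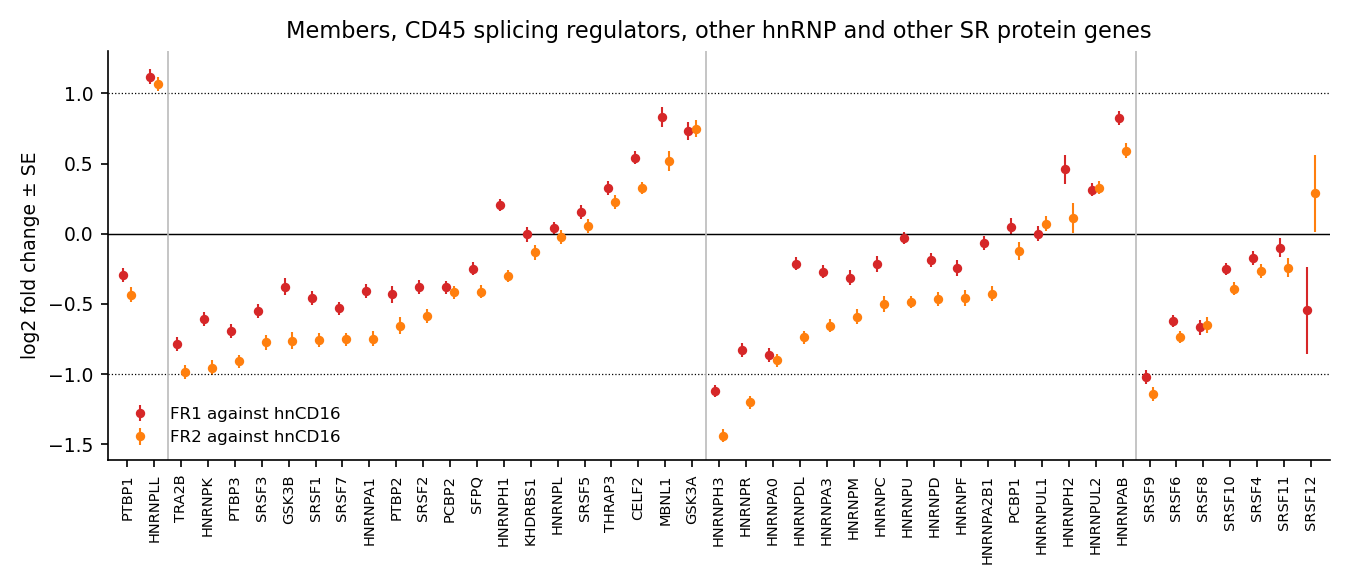
Log2 fold change ± SE from edgeR in FR1 and FR2 against hnCD16, for PTBP1 and HNRNPLL, 20 CD45 splicing regulators, 16 further hnRNP genes and 7 further SR protein genes, separated by vertical lines. The SE was worked out from the F statistic of the test. Dotted lines mark the fold threshold. HNRNPLL is the only gene shown above it, and most others lie below 0.

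Kinases and partners of CD45 went both ways. Of 26 genes on this list 21 were tested, and 8 were higher and 5 lower in FR1 than in hnCD16, where 38.3% of all genes were DEGs, and 10 were higher and 5 lower in FR2, where 39.5% were. LCK, the SRC family kinase that CD45 activates in T cells, had 1234 to 1337 counts in hnCD16 and at most 2 in any FR1 or FR2 library, and was at least 396-fold lower in FR1. LYN, a kinase of the same family, rose by 4.50 ± 0.0847 in FR1 and 4.49 ± 0.0847 in FR2 on the log2 scale, and FGR, another, rose by 7.02 and 5.94. LCK and CD3D were both near 0 in the libraries in which PTPRC was high, and the part of the T cell genes in the PTPRC result was not tested. PAG1, the adaptor that brings the inhibitory kinase CSK to the membrane, fell by 4.24 and 3.36. CD4, the T cell coreceptor, was at least 29.3-fold lower in FR1, and LGALS3, a galectin that binds CD45, rose by 9.00 and 8.90. CSK itself stood at 0.84 and 0.95, and PTPRCAP, a protein that binds CD45, at 0.44 and 0.30, all under the threshold.

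CD45 was not the only receptor-type tyrosine phosphatase to differ. Of 19 other genes of the family 15 were tested. In FR1 against hnCD16 4 were higher and 5 lower, where 38.3% of all genes were DEGs. In FR2 against hnCD16 5 were higher and 6 lower, where 39.5% of all genes were. PTPRJ, known as CD148, was at least 342-fold higher in FR1, with at most 1 count in any hnCD16 library and 926 to 1026 in FR1. PTPRS was at least 263-fold lower and PTPRD at least 197-fold lower in FR1, and PTPRF fell by 8.33 on the log2 scale. PTPRR and PTPRN had 0 counts in hnCD16 and 32 to 35 and 7 to 15 in FR1, at least 11.9-fold and 3.45-fold higher. PTPRA, named after its values were seen as the most abundant relative, had mean levels of 55.4 TPM in CTRL cells, 43.1 TPM in hnCD16, 68.3 TPM in FR1 and 74.1 TPM in FR2, beside 67.5, 74.7, 471 and 386 TPM for PTPRC, and was not a DEG in these comparisons.

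Genes that, like PTPRC, are used across leukocytes went both ways. Of 10 such genes 3 were higher and 4 lower in each of FR1 and FR2 against hnCD16. Of all genes tested, 18.7% were higher and 19.6% lower in FR1, and 19.6% higher and 19.8% lower in FR2. CD53, a tetraspanin, rose by 1.99 in FR1 and ITGAL, the LFA-1 alpha chain, by 2.60. ITGB2, the beta chain that pairs with it, was at least 183-fold lower, CD44 was at least 257-fold lower, and SPN, the sialoglycoprotein CD43, fell by 2.06. NEK7, the only tested neighbour of PTPRC on the chromosome of 4 looked up, stood at -0.19 in FR1 and -0.52 in FR2.

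Over the 12 libraries, the genes with the pattern most like that of PTPRC were CUL4B, IFI16 and RGS18, each with Pearson r = 0.999 on log2 CPM. For HNRNPLL they were GLOD4, GTF2A2 and THOC3, each with r = 0.999, and for PTBP1 they were SF3A1, SLC19A1 and GRWD1, with r = 0.995, 0.995 and 0.994. All these genes share the same libraries and their division into 2 kinds, and 2017, 2166 and 181 of 12339 genes had r over 0.95 with PTPRC, HNRNPLL and PTBP1.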

How the data were processed

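RNA-seq was analysed in 12 libraries of YT cells, 3 in each of 4 groups. Per the labels and the study's methods, the authors mapped reads to GRCh38.p13 with HISAT2 2.1.0 and quantified them with RSEM 1.3.1. The expected counts deposited by the authors are RSEM estimates per gene and per transcript, not normalized, and were rounded to whole numbers here. The TPM values deposited by the authors come from the same estimates. Whether counting used strand is not given in the sources used here. RSEM divides reads that transcripts share, and the error of that division is not part of any p-value. FPKM and normalized columns (24 per table) and columns of averages were not used.

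Genes (13657 after filterByExpr), transcripts (56640) and transcript usage (53005, diffSpliceDGE) were fitted with edgeR 4.0.16 in R 4.3.3, with TMM and 1 fit of 4 groups, and Benjamini-Hochberg adjustment over all features. Alternatives used DESeq2 1.42.0 and limma 3.58.1. The SE given with edgeR values is the size of the log2 change divided by the square root of the test's F statistic. It is not an SE reported by the fit. Bounds on folds use a floor of 3 counts per library. In simulated counts for FR1 against hnCD16, 200 of 200 changed genes among 13408 were called, with 1 unchanged gene. For usage, 77 of 77 transcripts simulated with a change above a set size were called, with 5 transcripts of genes not changed. That size was already past the call threshold, and every transcript was given the same spread. How smaller changes or transcripts of wider spread would fare was therefore not tested. The simulated counts did not include the division of shared reads. Implied lengths were calibrated on 505 genes with 1 transcript, with a residual SD of at most 0.214 bases. Replicates differed by more than sampling noise, with a chi-square per gene of 2.11 to 13.0 between libraries of a group.

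The members and gene lists were chosen with earlier results of these data known. Genes on the lists were named where they were DEGs in at least 1 comparison, at most 6 per list by size of change in FR1 against hnCD16, with others quoted as not DEGs, and for each member the 3 genes of highest Pearson r. The sequence of PTPRC exon 5 and its motif counts are not reported here.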

Additional observations from a re-analysis of the deposited data

How the results depend on the processing

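PTPRC and HNRNPLL kept their direction in FR1 and FR2 against both other groups under every alternative run, and PTPRC kept its call. In TPM with limma, HNRNPLL in FR2 came to 0.96 (pseudocount 1) and 0.97 (pseudocount 0.1) against CTRL and to 0.98 and 0.99 against hnCD16, just under the fold threshold, PTBP1 in FR2 against CTRL to -1.04 and -1.05, past it, and HNRNPLL between hnCD16 and CTRL to -0.0210 and -0.0212. By library size alone HNRNPLL between FR1 and FR2 came to -0.0105. HNRNPL, near 0, changed sign in FR1 against hnCD16 by library size alone (-0.0417) and in TPM (-0.0210 and -0.0211), and in FR2 with only the groups compared (0.0242) and without replicate 1 of hnCD16, in a range of -0.0540 to 0.0163 with a library left out. Without a fold threshold, PTPRC (0.31), HNRNPLL (0.15) and PTBP1 (-0.38) passed between hnCD16 and CTRL, PTPRC (0.29) and PTBP1 (0.14) between FR1 and FR2, and PTBP1 in FR1 and FR2 against CTRL (-0.68 and -0.82) and hnCD16 (-0.29 and -0.43).

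The 7 lists had 20, 21, 15, 16, 7, 10 and 1 genes tested. Of these, 35, 35, 31 and 36 were DEGs in FR1 and FR2 against CTRL and then hnCD16, and 2 between FR1 and FR2. Of all genes tested, 38.0%, 38.2%, 38.3% and 39.5% were DEGs in the same order, and 1.93% between FR1 and FR2. With at least 10 counts in every library, which removes genes at 0 in a group, the list counts were 21, 22, 18, 21 and 0. The 0 also held in limma on log2(TPM + 1). The share of all genes called with that count filter was not worked out. Without a fold threshold the list counts were 79, 83, 76, 79 and 44, and 58 between hnCD16 and CTRL. Of all genes tested, 79.9%, 80.2%, 79.1%, 80.1%, 36.2% and 43.0% passed on adjusted p alone in the same order. Leaving out a library gave 2 to 4 between FR1 and FR2, with 4 without replicate 1 of FR1 or of FR2.

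With only curated transcripts NM_001267798, which is low, is the only other PTPRC transcript, so NM_080921 is most of the gene by construction and its usage can hardly change, which makes its lost calls no test. Its usage then came to 0.0850 and 0.0871 in FR1 and FR2 against CTRL, 0.0711 and 0.0732 against hnCD16, and 0.0139 between hnCD16 and CTRL, where its share differed by 4.89 points. With these transcripts its share in FR1 and FR2 libraries was 17.4 points above that in CTRL and hnCD16 libraries, in place of 41.5. NM_080921 again did not overlap in share (exact permutation p = 0.00216, with libraries shuffled as independent), which beside a low transcript alone is no separate test. Its level between hnCD16 and CTRL ran from -0.38 (without replicate 1 of CTRL) to 0.26 with a library left out, and was -0.00845 with at least 10 counts in every library. Between FR1 and FR2 it ran from -0.0461 to 0.0555, above 0 without replicate 3 of FR1. Its share between hnCD16 and CTRL ran from -6.46 to 0.15 points, and in FR1 and FR2 against CTRL and hnCD16 from 39.9 to 43.3 points. XM_006711473 usage in FR1 against CTRL, not called at -0.32, ran from -0.83 to 0.31 with a library left out, and its share difference from -1.69 to 0.40 points, both above 0 without replicate 1 of CTRL. XM_006711474 usage in FR2 against CTRL ran from -1.20 to -1.07 and lost its call without replicate 1 of CTRL (adjusted p = 0.0560) or without any 1 FR2 library (adjusted p = 0.0528 to 0.0769). The share of NM_001267798, a short transcript, fell by 0.80 points in place of 2.73 when counts replaced TPM. Deviations of same-numbered libraries from their group means had r from -0.09 to 0.24. In no comparison did every pair pass 0.1. The r was positive in every pair of hnCD16 and CTRL (0.04 to 0.24) and of FR2 and hnCD16 (0.04 to 0.12). Whether the number marks a shared batch cannot be told from these values, so the block was run as an alternative. With the replicate block, NM_080921 between FR1 and FR2 came to 0.000653, no other direction changed, NM_001142650 lost its calls in level, and 75 genes in place of 72 were DEGs between hnCD16 and CTRL.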
